A study of Mus musculus with 8 samples.

Results

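The RNA of 10 genes that encode attractants or growth factors of myeloid cells was followed in tumor endothelial cells from mice treated with an agonistic CD40 antibody. They are the CC chemokines Ccl2, Ccl7, Ccl8 and Ccl9, the CXC chemokines Cxcl1, Cxcl2 and Cxcl5, and the colony-stimulating factors Csf1, Csf2 and Csf3. They were chosen by function, as listed chemokines of neutrophils or monocytes and as colony-stimulating factors, and all 10 of the 10 listed symbols were found among the 20057 genes of the deposited table. The RNA came from 8 subcutaneous B16.F10 melanomas, a mouse tumor line, grown from 250000 cells in male C57BL/6 mice that were 8 weeks old. Mice received 2 peritumoral injections of 30 µg, on days 13 and 16, of either the anti-CD40 clone FGK4.5 (4 mice, 5N, 6L, 6R and 10N) or the rat IgG2a isotype antibody 2A3 (4 mice, 5L, 7N, 8N and 9L). The labels place the harvest 1 day after the last injection, while the methods also name a later day. From each tumor about 100000 live cells that lacked CD45, a leukocyte marker, and carried CD31, an endothelial marker, were sorted, and 1 RNA-sequencing library was made per tumor. The question put to these 10 genes was whether their RNA in the sorted tumor endothelium differed between these antibodies.

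Chemokines of the CC family such as Ccl2 and Ccl7 draw monocytes out of the blood through Ccr2, and CXC chemokines such as Cxcl1, Cxcl2 and Cxcl5 draw neutrophils through Cxcr2. Endothelial cells make several of them after stimulation by inflammatory cytokines, and hold them on heparan sulfate at the vessel surface, where passing leukocytes meet them. Of the colony-stimulating factors, Csf1 keeps macrophages alive and lets monocytes mature, Csf2 (GM-CSF) stimulates granulocytes and macrophages, and Csf3 (G-CSF) drives the formation of neutrophils.

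Values are given as normalized reads, that is gene counts after scaling of each library to a common size. Reads on genes per library ranged from 12512772 to 64938728 with anti-CD40 and from 2971689 to 35583141 with isotype control, and 1 read was worth between 0.118 (5N) and 2.44 (5L) normalized reads. The 3 shallowest libraries, 5L, 7N and 8N, were all isotype controls. Endothelial markers (10 of 10 measured, among them Pecam1 and Cdh5) summed to between 39820 and 58174 normalized reads with anti-CD40 and to between 34778 and 48929 with isotype control. Markers of other cells were present as well. Fibroblast markers, with the collagens Col1a1, Col1a2 and Col3a1 in the lead, summed to between 88741 and 249630, so the sorted cells were not endothelium alone by these markers. Ptprc, which encodes CD45, reached at most 21.1 normalized reads in any library. Cd40, the receptor of the antibody, had 60.2, 68.6, 47.5 and 48.2 normalized reads in 5N, 6L, 6R and 10N, and 31.8, 19.0, 69.4 and 70.4 in 5L, 7N, 8N and 9L. Its groups overlapped (log2 fold change 0.41 ± 0.40 (SE), limma p = 0.332, two-sided exact permutation p = 0.571). Its log2 fold change ranged from 0.04 without 7N to 0.65 without 9L, and was −0.21 with library quality weights. Among the isotype libraries, 5L was the lowest for 9 of the 10 genes (tied with 7N for Csf2) and 7N the highest for 6, and results are therefore also given without them. In sorted bulk RNA, fewer cells of a type and less RNA per cell cannot be told apart.

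Of the 10 genes, 8 had a larger group mean above 10 normalized reads and were tested together with all other such genes. The threshold, taken from the methods, was group means that differ 1.5-fold or more together with a limma p not above 0.05 before adjustment, fitted on log2(normalized reads + 1). Only Ccl8 passed it, and it was higher with anti-CD40. That is 1 of 8, beside 166 of all 12969 genes tested (1.28%) that passed in this direction. None of the 8 was lower, beside 31 of 12969 (0.239%). No gene of the 8 had an adjusted p under 0.05 after Benjamini-Hochberg adjustment over all genes tested, as was the case for all but 2 of 12969 genes (0.0154%). With the limma p alone, 0.05 or less before adjustment, the count was 1 of 8, beside 2.01% of all genes in either direction. On recovered reads, edgeR and DESeq2 each called 2 of 8, Ccl8 and Ccl2, both higher, beside 150 (1.16%) and 161 (1.24%) of all 12969 genes in this direction, and neither gave an adjusted p under 0.05. A ratio of at least 1.5, whatever its p, was seen for Ccl2, Ccl8 and Cxcl5 (3 of 8, beside 2.75% of all genes). The log2 fold change was above 0 for 8 of 8, beside 51.3% of all genes, and its median was 0.62 over the 8 and 0.00457 over all genes tested. The median over the 8 was 0.31 with edgeR and with DESeq2, 0.09 without isotype 5L, where 6 of 8 were above 0, and 1.00 without isotype 7N. In none of the 10 genes did all anti-CD40 libraries lie above all isotype libraries, beside 1.09% of all genes tested, nor did the groups separate in either direction, beside 1.57%.

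**Figure D1:**
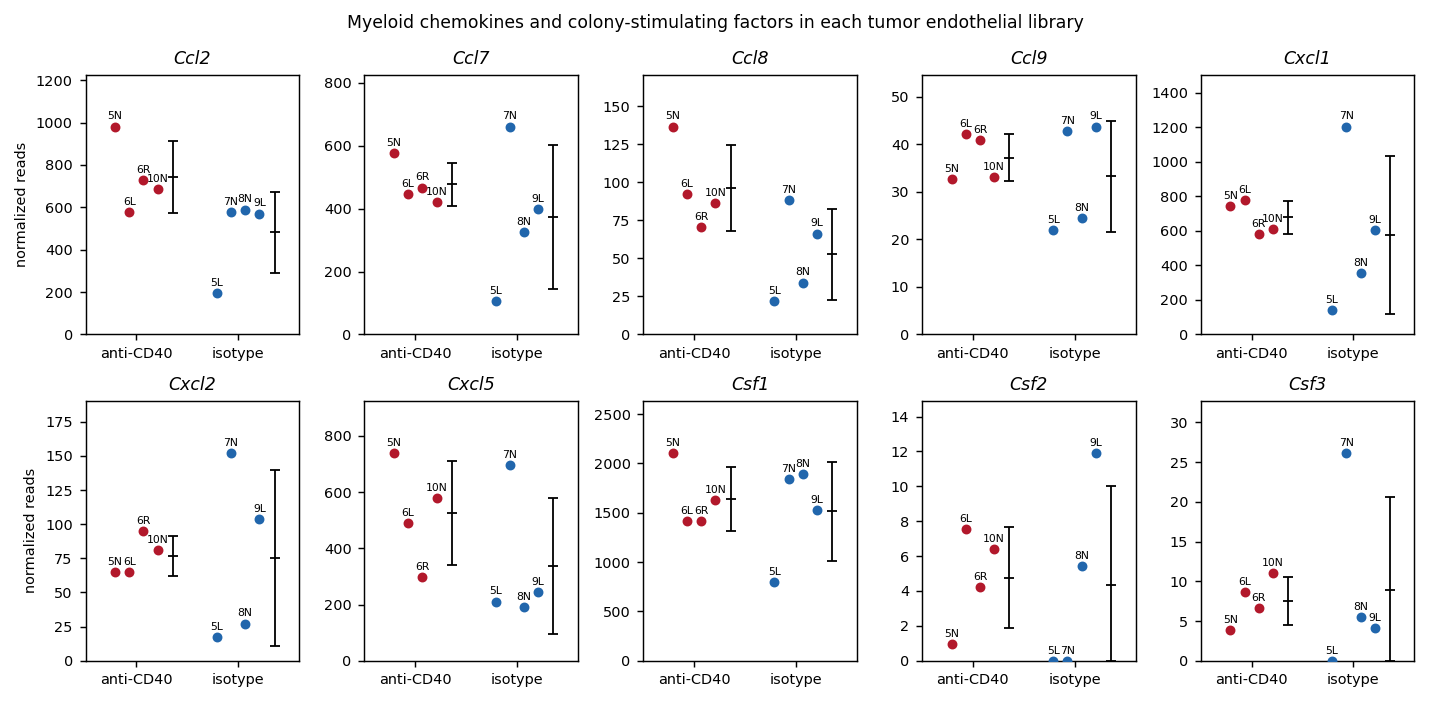
Normalized reads of the 10 genes (vertical axes, linear, from 0) in each of the 8 libraries, with anti-CD40 in red and isotype control in blue; points are single tumors named by mouse, and the bars beside them give the mean and SD (n = 4), cut off at 0 where they would pass below it. Points of both groups overlap in every panel, with isotype 5L at the bottom of most panels and isotype 7N at the top of Ccl7, Cxcl1, Cxcl2 and Csf3.

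Among the CC chemokines, Ccl2 (chr11:82035571-82037453, plus strand, mm10), the main ligand of Ccr2 on inflammatory monocytes, had 981, 577, 727 and 686 normalized reads in 5N, 6L, 6R and 10N and 196, 576, 589 and 570.3 in 5L, 7N, 8N and 9L. Of the anti-CD40 libraries, 3 lay above every isotype library, and 6L lay among the isotype values. The mean was 743 ± 171 (SD, n = 4) with anti-CD40 and 483 ± 192 (SD, n = 4) with isotype control, a ratio of 1.54. The log2 fold change was 0.72 ± 0.33 (SE), with a 95% interval from −0.01 to 1.45 (limma p = 0.0514, adjusted p = 1.00, two-sided exact permutation p = 0.0571). Isotype 7N, 8N and 9L lay between 570.3 and 589, so the spread of this group came from 5L. Without 5L the ratio was 1.28. Ccl2 passed the threshold without 6L, 7N, 8N or 9L (ratios 1.64 to 1.66, limma p from 0.0374 to 0.0451), and did not without 5L or any other anti-CD40 library.

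Ccl7 (chr11:82045712-82047525, plus strand), a neighbor of Ccl2 that also signals through Ccr2, had 577, 447, 467 and 420.4 normalized reads with anti-CD40 and 105, 661, 327 and 399.8 with isotype control, in the same order of mice. The anti-CD40 libraries differed by 1.37-fold between the lowest and the highest, the isotype libraries by 6.29-fold, and isotype 7N was the highest of all 8. The means of 478 ± 68.9 and 373 ± 229 (SD, n = 4 each) gave a ratio of 1.28 and a log2 fold change of 0.62 ± 0.44 (SE, 95% interval −0.35 to 1.58, limma p = 0.186, two-sided exact permutation p = 0.429). Without 5L the ratio was 1.03 and the log2 fold change 0.10, and without 7N they were 1.72 and 0.98, with a limma p of 0.0309, which passed the threshold.

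Ccl8 (chr11:82115185-82116799, plus strand), which in the mouse signals through Ccr8, had 137, 92.0, 70.4 and 86.5 normalized reads with anti-CD40 and 22.0, 88.0, 34.0 and 66.3 with isotype control. The isotype libraries 5L and 8N were below all others, while isotype 7N lay between anti-CD40 10N and 6L. The mean was 96.4 ± 28.3 with anti-CD40 and 52.6 ± 30.1 with isotype control (SD, n = 4 each), a ratio of 1.83. The log2 fold change was 1.01 ± 0.40 (SE, 95% interval 0.12 to 1.90, limma p = 0.0294, adjusted p = 1.00), and the two-sided exact permutation test on the deposited values gave p = 0.0857. In isotype 5L this value rested on 9 reads. The log2 fold change was 0.67 without 5L, with a limma p of 0.0657, and 0.83 without anti-CD40 5N, with a limma p of 0.0874. It was 1.02 without anti-CD40 6L, with a limma p of 0.0520, and 0.87 without isotype 8N, with a limma p of 0.0777, so the call was lost without any of these 4 libraries. Without isotype 7N it was 1.32, with a limma p of 0.00550. Ccl8 was called in 11 of 11 other alternatives that kept all libraries.

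The RefSeq promoter table (GRCm38.p6, the build called mm10) held 6 of the 10 genes, Ccl8, Ccl9, Cxcl1, Cxcl2, Csf1 and Csf2. The stretch from 250 bases before to 50 after the start of Ccl8, chr11:82114935-82115234 on the plus strand, is shown because Ccl8 was the gene past the threshold. Capitals mark TATAAA, which lies at −32 to −27 from the start.
Ccl8 promoter: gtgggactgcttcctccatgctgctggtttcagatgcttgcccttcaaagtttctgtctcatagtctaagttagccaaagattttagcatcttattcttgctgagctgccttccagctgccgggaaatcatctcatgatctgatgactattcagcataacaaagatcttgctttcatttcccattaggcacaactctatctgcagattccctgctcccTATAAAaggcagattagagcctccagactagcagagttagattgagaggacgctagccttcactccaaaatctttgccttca
TATAAA, searched on both strands, occurs in 13.6% of the 32851 promoters of that length. Ccl8 held none of the other letters searched, a form of the NF-kB motif (GGG and, after any 2 bases, TTTCC), TTCNNNGAA (a STAT motif) and TGANTCA (an AP-1 motif).

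Ccl9 (chr11:83572919-83578636, minus strand), a ligand of Ccr1, was the weakest of the CC chemokines, with 32.7, 42.2, 40.9 and 33.1 normalized reads with anti-CD40 and 22.0, 42.8, 24.5 and 43.8 with isotype control. The isotype libraries fell into a low pair, 5L and 8N, and a pair above every anti-CD40 library, 7N and 9L. The means of 37.2 ± 5.03 and 33.3 ± 11.6 (SD, n = 4 each) had a ratio of 1.12, and the log2 fold change was 0.21 ± 0.30 (SE, 95% interval −0.45 to 0.88, limma p = 0.491, two-sided exact permutation p = 0.600). Without 5L the log2 fold change was 0.04 and the ratio 1.01, and without 7N they were 0.35 and 1.24. Of the 50-base windows of its transcripts, 1.97% also occur in transcripts of other genes, so a part of its reads could belong elsewhere.

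Among the CXC chemokines, Cxcl1 (chr5:90891241-90893115, plus strand), a ligand of Cxcr2 on neutrophils, had 742, 779, 581 and 612 normalized reads with anti-CD40 and 142, 1204, 357 and 605 with isotype control. The anti-CD40 values stayed within 1.34-fold of one another. The isotype values spanned 8.49-fold and held both the highest and the lowest value of the 8. The means of 679 ± 96.7 and 577 ± 459 (SD, n = 4 each) had a ratio of 1.18 and a log2 fold change of 0.62 ± 0.50 (SE, 95% interval −0.49 to 1.72, limma p = 0.244, two-sided exact permutation p = 0.714). Without 5L the log2 fold change was 0.08 and the ratio 0.940, and without 7N they were 1.10 and 1.84, with a limma p of 0.0199, so the outcome for Cxcl1 turned on which of these libraries was kept.

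Cxcl2 (chr5:90903871-90905938, plus strand), which acts through the same receptor, was weaker, with 65.1, 64.9, 95.1 and 81.3 normalized reads with anti-CD40 and 17.1, 152, 27.2 and 104 with isotype control. As for Cxcl1, isotype 7N was the highest and 5L the lowest, and the isotype values spanned 8.90-fold against 1.47-fold with anti-CD40. The means were nearly equal, 76.6 ± 14.5 and 75.0 ± 64.3 (SD, n = 4 each), while the log2 fold change was 0.52 ± 0.59 (SE, 95% interval −0.78 to 1.82, limma p = 0.398, two-sided exact permutation p = 1.00). On the log scale the low libraries 5L and 8N weigh more. In 5L the value rested on 7 reads, and 5.84% of the 50-base windows of Cxcl2 are shared with Cxcl3.

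The promoters of Cxcl1 (chr5:90890995-90891294, plus strand) and Cxcl2 (chr5:90903649-90903948, plus strand) are shown because these genes are neighbors with the same receptor and both hold the NF-kB motif (GGG and, after any 2 bases, TTTCC) more than once. Capitals mark this motif on either strand.
Cxcl1 promoter: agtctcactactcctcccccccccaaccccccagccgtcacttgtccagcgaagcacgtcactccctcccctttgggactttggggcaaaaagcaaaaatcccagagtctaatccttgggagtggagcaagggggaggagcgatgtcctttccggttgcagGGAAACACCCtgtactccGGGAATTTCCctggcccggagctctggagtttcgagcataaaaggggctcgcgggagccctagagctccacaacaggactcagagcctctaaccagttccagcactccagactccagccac
Cxcl2 promoter: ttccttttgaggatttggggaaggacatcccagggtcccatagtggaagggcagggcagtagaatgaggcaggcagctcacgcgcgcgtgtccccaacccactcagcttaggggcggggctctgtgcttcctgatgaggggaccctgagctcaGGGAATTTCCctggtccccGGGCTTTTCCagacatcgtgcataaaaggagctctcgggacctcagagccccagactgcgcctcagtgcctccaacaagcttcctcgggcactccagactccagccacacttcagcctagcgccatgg
In Cxcl1 the matches lie at −89 to −80 and −71 to −62 from the RefSeq start, and in Cxcl2 at −97 to −88 and −78 to −69. The motif was found in 1.63% of the 32851 promoters. Csf1 held 1 match at −154 to −145 and Ccl9 1 at −35 to −26, whereas the windows of Ccl8 and Csf2 held none. The Csf2 window was set on a RefSeq start 232 bases upstream of its GENCODE start and does not reach the latter. It thus says nothing of the bases next to the GENCODE start. A match is a string of letters and was not tested for binding.

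Cxcl5 (chr5:90759360-90761624, plus strand), the third ligand of Cxcr2 examined, had 739.7, 489.6, 298 and 577 normalized reads with anti-CD40 and 210.2, 697, 192 and 245 with isotype control. All 4 anti-CD40 libraries were above isotype 5L, 8N and 9L, whereas isotype 7N was above all anti-CD40 libraries but 5N. The means of 526 ± 184 and 336 ± 242 (SD, n = 4 each) had a ratio of 1.57, and the log2 fold change was 0.79 ± 0.40 (SE, 95% interval −0.08 to 1.67, limma p = 0.0713, two-sided exact permutation p = 0.286). Without 7N the ratio was 2.44 and the log2 fold change 1.22, with a limma p of 0.00121. Without 5L they were 1.39 and 0.64, with a limma p of 0.137. Cxcl5 passed the threshold without 7N and also without anti-CD40 6R (ratio 1.79, log2 fold change 1.04, with a limma p of 0.0273).

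Of the colony-stimulating factors, Csf1 (chr3:107741048-107760469, minus strand), the ligand of Csf1r on macrophages, was the most abundant of the 10 genes in normalized reads. It had 2107, 1417, 1415 and 1630.0 normalized reads with anti-CD40 and 799, 1841, 1889 and 1529 with isotype control. All libraries but 5L lay between 1415 and 2107 normalized reads, and both groups mixed in that range. The means of 1642 ± 326 and 1515 ± 503 (SD, n = 4 each) had a ratio of 1.08, with a log2 fold change of 0.17 ± 0.26 (SE, 95% interval −0.39 to 0.74, limma p = 0.512, two-sided exact permutation p = 0.714). Without 5L the log2 fold change was −0.11 and the ratio 0.937, that is on the other side of 0.

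Csf2 (chr11:54247271-54249667, minus strand) and Csf3 (chr11:98701263-98703629, plus strand) were at the edge of detection and were not tested with limma. Csf2 had 8, 20, 7 and 11 reads with anti-CD40 and 0, 0, 4 and 55 with isotype control, or 4.77 ± 2.90 and 4.34 ± 5.67 normalized reads (SD, n = 4 each, two-sided exact permutation p = 0.914). The ratio of the means of Csf2 was 1.10 with all libraries and 0.824 without 5L or without 7N, so its direction turned on single libraries. Csf3 had 33, 23, 11 and 19 reads with anti-CD40 and 0, 11, 4 and 19 with isotype control, or 7.55 ± 3.04 and 8.93 ± 11.7 normalized reads (SD, n = 4 each, two-sided exact permutation p = 0.943). The ratio of the means of Csf3 was 0.846 with all libraries, 0.634 without 5L and 2.37 without 7N, so its direction turned on 7N. A count of 0 allows up to 3 reads, which is 7.33 normalized reads in 5L and 7.14 in 7N, more than the mean of Csf2 in either group, so in these 2 libraries a level equal to either group mean could have gone undetected. These limits cover counting error only. An exon of Csf2 overlaps Gm12223 on the opposite strand, and the kit is not stated to keep strand, so reads there cannot be assigned to either gene with certainty.

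Cytokine RNAs are often short-lived through repeats of ATTTA in their 3′ UTR, to which decay factors such as Zfp36 bind. Counted in the coding transcript with the longest 3′ UTR of each gene in GENCODE M21, the pentamer occurred 11 times in Cxcl2, 9 in Csf2, 7 in Cxcl1, 6 in Csf3, 5 in Ccl9 and Cxcl5, 4 in Csf1, 2 in Ccl7, 1 in Ccl2 and not at all in Ccl8. Of 21022 genes with a 3′ UTR, 65.2% held at least 1 and 21.6% at least 5, with a median of 1. The UTRs differ in length, from 165 bases in Ccl8 to 2465 in Ccl9, against a median of 961 over all genes. The 30-base windows with the most pentamers are shown, in DNA letters with ATTTA in capitals, for the 4 genes that hold at least 3 in such a window.
Cxcl1 window: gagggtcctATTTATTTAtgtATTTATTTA
Cxcl2 window: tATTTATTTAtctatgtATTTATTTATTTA
Csf2 window: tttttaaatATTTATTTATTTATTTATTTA
Csf3 window: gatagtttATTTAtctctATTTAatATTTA
These 4 genes include the 2 that were at the edge of detection and the 2 with the widest span among the tested isotype libraries. Ccl8, the gene past the threshold, had no pentamer in its 165 bases. Whether the pentamers bear on the level, the span or the fold change of any of these genes was not tested.

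Levels were compared between genes per kilobase of the longest coding transcript, as the mean of all 8 libraries. Ccl2 was at 754 normalized reads per kilobase, Cxcl1 at 659, Ccl7 at 531, Csf1 at 378, Cxcl5 at 274, Ccl8 at 146, Cxcl2 at 40.8, Ccl9 at 11.7, Csf3 at 5.83 and Csf2 at 5.70. Per length, Csf1 was thus below Ccl2, Cxcl1 and Ccl7. Ccl2 was above Cxcl1 in 6 of 8 libraries, Cxcl1 above Ccl7 in 7, Ccl7 above Csf1 in 6 and Csf1 above Cxcl5 in 7, so neighbors in the upper part of this order changed places in 1 or 2 tumors. Cxcl5 was above Ccl8, Ccl8 above Cxcl2 and Cxcl2 above Ccl9 in all 8 libraries. Csf3 was above Csf2 in only 2 of 8 libraries and the order of these 2 was not resolved.

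The SD among isotype tumors was larger than the difference between the group means for 8 of the 10 genes, all but Ccl2 and Ccl8. Isotype 5L was the lowest of all 8 libraries for 8 of the 10 genes and tied with 7N at 0 for Csf2, all but Cxcl5. Isotype 7N was the highest of all 8 for Ccl7, Cxcl1, Cxcl2 and Csf3, and anti-CD40 5N for Ccl2, Ccl8, Cxcl5 and Csf1. Over the 8 tested genes, the median deviation from each gene's mean was −1.53 on the log2 scale in 5L, −0.54 in 8N, 0.04 in 9L and 0.60 in 7N, against 0.53, 0.26, 0.17 and 0.22 in 5N, 6L, 6R and 10N. The 4 anti-CD40 tumors thus lay close together, inside the range of the isotype tumors. The coefficient of variation was larger with isotype control than with anti-CD40 for all 10 genes, beside 70.9% of all genes tested, for example 79.5% against 14.2% for Cxcl1, 85.7% against 18.9% for Cxcl2 and 33.2% against 19.8% for Csf1. This difference in spread was not tested.

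**Figure D2:**
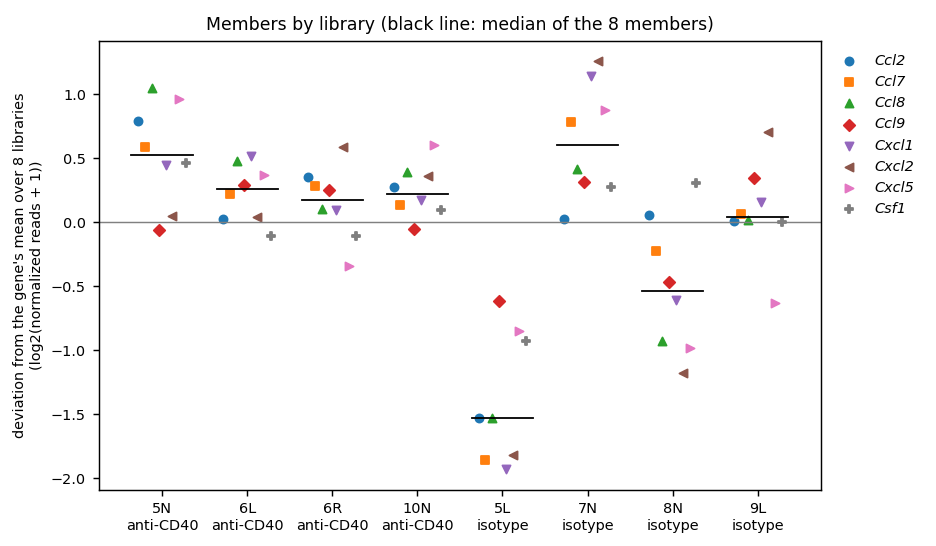
Deviation of each of the 8 tested genes from its own mean over the 8 libraries (vertical axis, log2(normalized reads + 1)) in every library (horizontal axis, mouse and treatment); symbols are genes and the black line is their median. Isotype 5L sits at −1.53 and isotype 7N at 0.60, with the 4 anti-CD40 libraries between 0.17 and 0.53.

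Summed by family, CC chemokines had 1728, 1159, 1305 and 1226 normalized reads in 5N, 6L, 6R and 10N and 345, 1368, 975 and 1080.2 in 5L, 7N, 8N and 9L. CXC chemokines had 1547, 1334, 975 and 1271 with anti-CD40 and 369, 2053, 576 and 953 with isotype control. Colony-stimulating factors, almost entirely Csf1, had 2112, 1433, 1426 and 1647 with anti-CD40 and 799, 1868, 1900.3 and 1545 with isotype control. The groups overlapped in each family, and the highest isotype library was 7N for both chemokine families and 8N for the colony-stimulating factors.

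Leaving out 5L or 7N moved the fold changes in opposite directions. Without 5L none of the 8 genes passed the threshold, beside 1.24% of all genes that were higher, and log2 fold changes fell to between −0.11 (Csf1) and 0.67 (Ccl8). Without 7N 5 genes passed it, Ccl2, Ccl7, Ccl8, Cxcl1 and Cxcl5, with log2 fold changes from 0.85 to 1.32, beside 1.67% of all genes that were higher, and Ccl9, Cxcl2 and Csf1 did not. Without both, chosen after seeing the data, Ccl8 (0.96, with a limma p of 0.0152) and Cxcl5 (with a limma p of 0.00239) passed it, beside 1.06% of all genes. Ccl2, Ccl7, Ccl8, Ccl9, Cxcl1 and Cxcl5 had a log2 fold change above 0 in every fit run, while Cxcl2 and Csf1 were below 0 without 5L.

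**Figure D3:**
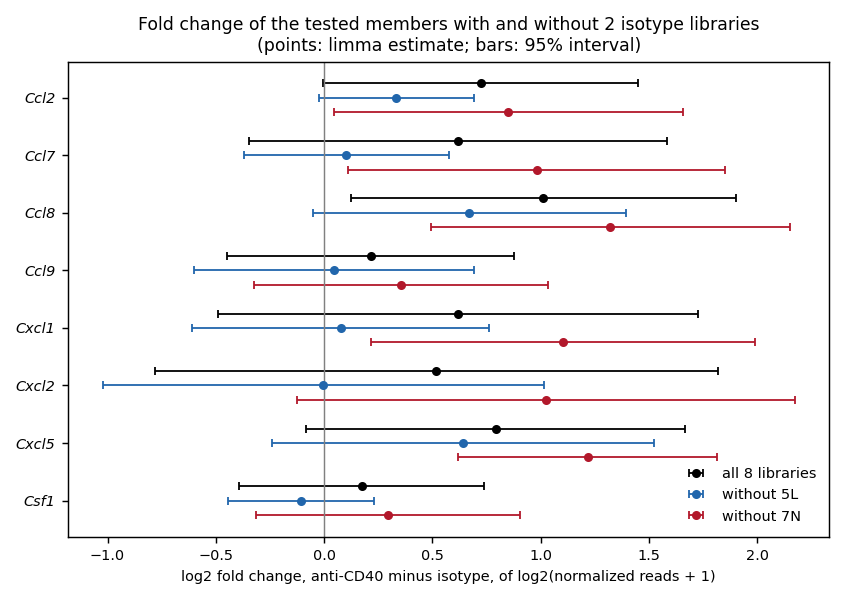
Log2 fold change of the 8 tested genes (horizontal axis, anti-CD40 minus isotype control, of log2(normalized reads + 1)) with all 8 libraries in black, without isotype 5L in blue and without isotype 7N in red; points are limma estimates and bars 95% intervals. For Cxcl1 the estimate lies at 0.62, 0.08 and 1.10 in these 3 fits, and for Ccl8 at 1.01, 0.67 and 1.32.

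Joint variation from tumor to tumor was examined in pairs of genes. Over the 8 libraries, 28 pairs of the 8 tested genes were compared on log2(normalized reads + 1), and Pearson's r was above 0 for all 28, with a median of 0.77. Over all pairs of the 12969 genes tested, r was above 0 for 50.7%, its median was 0.01, and 3.92% reached the median of the 28. By exact permutation tests over all pairings, 15 of 28 pairs had an adjusted p under 0.05 for Pearson's r and none for Spearman's rho, whose median was 0.48. The closest pair was Ccl7 and Cxcl1 (r = 0.97, exact permutation p = 6.94e-04, adjusted p = 0.0176, rho = 0.81, exact permutation p = 0.0218, adjusted p = 0.0871), although these genes lie on different chromosomes. Without the 2 libraries farthest from the median of Ccl7, 5L and 7N, r was 0.82. Ccl8 and Cxcl5 had r = 0.85 (adjusted p = 0.0176) and rho = 0.90 (exact permutation p = 0.00456, adjusted p = 0.0718), and 0.83 for r without 5L and 8N. The neighbors Cxcl1 and Cxcl2 had r = 0.90 (adjusted p = 0.0176, exact permutation) but rho = 0.55, and r = 0.67 without 5L and 7N. The neighbors Ccl2 and Ccl7 had r = 0.90, which rested on 5L and 5N, since r was −0.03 without them. Ccl9 and Csf1 were the least alike (r = 0.38). Without 5L, 24 of 28 pairs were above 0, the median r was 0.47 and 1 pair, Ccl8 and Cxcl5, had an adjusted p under 0.05 by the exact permutation test (r = 0.88, adjusted p = 0.0389), so most of the calls among pairs rested on this library.

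Markers of other cell types also differed between libraries, and not always in the order of the 10 genes. Fibroblast markers (7 of 7 measured) summed to 207536, 176027, 121110 and 249630 normalized reads in 5N, 6L, 6R and 10N and to 88741, 217587, 211561 and 178024 in 5L, 7N, 8N and 9L, so 5L was the lowest here too. Mural cell markers (7 of 7 measured) ranged from 14821 to 25655 with anti-CD40 and from 11505 in 5L to 36026 in 7N with isotype control. Melanoma markers (6 of 6 measured) ranged from 34553 to 58341 with anti-CD40 and from 37047 in 7N to 89692 in 5L with isotype control, the highest where most of the 10 genes were lowest. Lymphatic endothelial markers (6 of 6 measured) summed to 3314, 5412, 3327 and 3161 normalized reads in 5N, 6L, 6R and 10N and to 2102, 2769, 4007 and 3353 in 5L, 7N, 8N and 9L. All 6 had a log2 fold change above 0, with a median of 0.58, and none passed the threshold. Of 32 relations between the 8 genes and the sums of endothelial, fibroblast, mural and melanoma markers, computed after seeing the data, none had an adjusted p under 0.05 by exact permutation tests. The strongest by size were Csf1 with fibroblast markers (r = 0.87, exact permutation p = 0.00704, adjusted p = 0.189, rho = 0.76, r = 0.46 without 5L and 6R) and Cxcl1 with melanoma markers (r = −0.86, exact permutation p = 0.0130, adjusted p = 0.189, rho = −0.86, r = −0.62 without 5L and 6R). The part of these cells in the levels of the 10 genes was not tested.

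Markers of the leukocytes that these proteins attract were measured as well. Macrophage and monocyte markers (11 of 11 measured) summed to between 375 and 598 normalized reads with anti-CD40 and between 246 and 554 with isotype control. Among them, Mrc1, a mannose receptor of macrophages and of some endothelium, passed the threshold (39.0 ± 2.94 against 22.4 ± 7.46, SD, n = 4 each, ratio 1.74, limma p = 0.0189, two-sided exact permutation p = 0.0286) and had no overlap between groups, beside 1.57% of all genes tested. Mrc1 was the only 1 of the 10 tested macrophage markers to pass, beside 1.28% of all genes. Its call was lost without isotype 8N (log2 fold change 0.63, with a limma p of 0.0562). Of the 10, 7 had log2 fold changes above 0, beside 51.3% of all genes, and the median was 0.38. The other 3 were below 0 (Csf1r, Cd68 and C1qc, named after their values were seen). Neutrophil markers (9 of 9 measured) summed to between 15.1 and 53.5 with anti-CD40 and between 2.72 and 50.0 with isotype control, with Ly6g, a defining marker, at 0 in all 8 libraries. General leukocyte markers summed to between 104 and 262, and T and NK cell markers to at most 9.63, with Cd3d at 0 in all libraries. Red blood cell markers were lower with anti-CD40 for 5 of 5 genes (Hbb-bs, Hbb-bt, Hba-a1, Hba-a2 and Alas2, ratios 0.129 to 0.178, limma p from 0.00182 to 0.0107, beside 0.239% of all genes that were lower) and highest in 7N, with a sum of 8760 normalized reads there. For each of the 5 the two-sided exact permutation p was 0.0571, the groups overlapped, and the lowest adjusted limma p was 0.459. Their sum was 1267 in anti-CD40 10N and 852 in isotype 8N. Ratios ran from 0.223 to 0.358 without 7N and from 0.0744 to 0.127 without 10N. The part of red blood cells in the result was not tested.

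**Figure D4:**
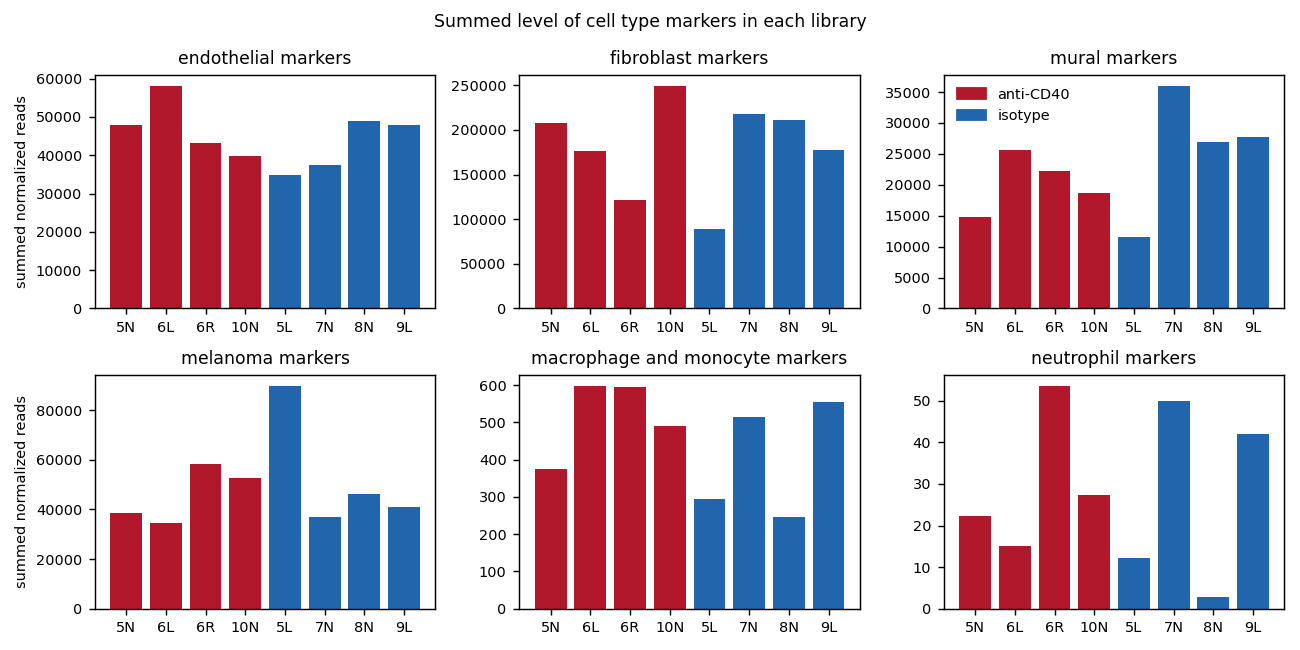
Summed normalized reads of the marker genes of 6 cell types (vertical axes, linear, from 0) in each library, with anti-CD40 in red and isotype control in blue. Isotype 5L has the lowest fibroblast sum (88741) and the highest melanoma sum (89692), and isotype 7N the highest mural sum (36026).

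Related genes were described by lists of ligands, receptors, inducers and regulators. Of 12 further myeloid chemokines and Il34, 8 were tested, none passed the threshold in either direction and the median log2 fold change was 0.49. Cx3cl1, the membrane-bound chemokine of endothelium, had 298 ± 56.1 against 205 ± 82.2 normalized reads (SD, n = 4 each, log2 fold change 0.65 ± 0.33 (SE), limma p = 0.0788, two-sided exact permutation p = 0.114). Its log2 fold change was 0.26 without 5L and 0.81 without 7N, where it passed the threshold with a limma p of 0.0456. Ccl11, an eosinophil chemokine, had 234 ± 74.4 against 182 ± 66.9 (0.40 ± 0.32 (SE), limma p = 0.234, two-sided exact permutation p = 0.429). For Ccl11 it was 0.09 without 5L and at most 0.58, without 10N. Of 12 receptors of the 10 proteins, 5 were tested and none passed, with a median of 0.21, and Ccr3 and Ccr8 were at 0 in all libraries. The most abundant, Csf2rb and Csf2rb2, which encode beta chains of cytokine receptors, had log2 fold changes of 0.21 and 0.31, with ranges of 0.05 to 0.43 and 0.07 to 0.56 when 1 library was left out. Csf2rb2 passed the threshold without anti-CD40 10N (with a limma p of 0.0337).

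Of 5 atypical chemokine receptors, which bind chemokines without driving migration, 4 were tested and 1, Ccrl2, was higher with anti-CD40, beside 1.28% of all genes. Ccrl2 presents chemerin on endothelium. It had 38.3, 92.4, 69.8 and 61.6 normalized reads in 5N, 6L, 6R and 10N and 19.6, 26.2, 40.8 and 41.0 in 5L, 7N, 8N and 9L, so that only 5N reached into the isotype range. The means of 65.5 ± 22.4 and 31.9 ± 10.8 (SD, n = 4 each) had a ratio of 2.05 (log2 fold change 1.01 ± 0.34 (SE), limma p = 0.0126, two-sided exact permutation p = 0.0857). The call held in 8 of 8 fits that left out 1 library and was lost without 5L and 7N together.

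A list of 18 factors held members of the NF-kB, C/EBP and IRF families, their activators and inhibitors, and Stat3. All 18 were tested and 1, Irf1, passed the threshold, beside 1.28% of all genes that were higher. Its groups did not overlap, beside 1.57% of all genes. Irf1, a factor induced by interferon, had 784, 941, 1082 and 1330.4 normalized reads with anti-CD40 and 305, 454, 709 and 613 with isotype control (ratio 1.99, log2 fold change 1.03 ± 0.25 (SE), limma p = 0.00188, adjusted p = 0.460, two-sided exact permutation p = 0.0286, the smallest that 4 against 4 libraries can give). The other 17 had log2 fold changes from −0.32 (Rel) to 0.45 (Nfkbie).

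None of the genes in the remaining lists passed the threshold by limma, none had a limma p of 0.05 or less before adjustment, and edgeR and DESeq2 called none of them either. The median log2 fold change was 0.11 for 12 receptors of inducing signals such as Il6st and Tnfrsf1a, 0.38 for the 4 inducing cytokines tested (9 listed, 8 with a row in the table used), 0.07 for 9 factors of cytokine RNA decay such as Zfp36 and Dusp1 (10 symbols listed, of which Auf1 is another name of Hnrnpd), and 0.11 for 13 proteoglycans and enzymes that present or cut chemokines, such as Hspg2 and Mmp2. Ifng, which encodes interferon gamma, was at 0 in all libraries. Il6 had 254 ± 65.2 normalized reads with anti-CD40 and 259 ± 196 with isotype control (SD, n = 4 each, limma p = 0.599, two-sided exact permutation p = 1.00), and Il33 1475 ± 260 and 1490.0 ± 855 (SD, n = 4 each, limma p = 0.671, two-sided exact permutation p = 0.971), with 7N again the highest and 5L the lowest isotype library in both. Without 7N, Il6 passed the threshold (ratio 1.53, log2 fold change 0.67, with a limma p of 0.0430). So did Tnf, named after its values were seen, without 7N (ratio 2.50, with a limma p of 0.0308) or 9L (2.32, with a limma p of 0.0437), while with all libraries it had 20.5 ± 6.78 and 11.5 ± 10.3 normalized reads (SD, n = 4 each, log2 fold change 1.23 ± 0.68 (SE), limma p = 0.10, two-sided exact permutation p = 0.171).

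**Figure D5:**
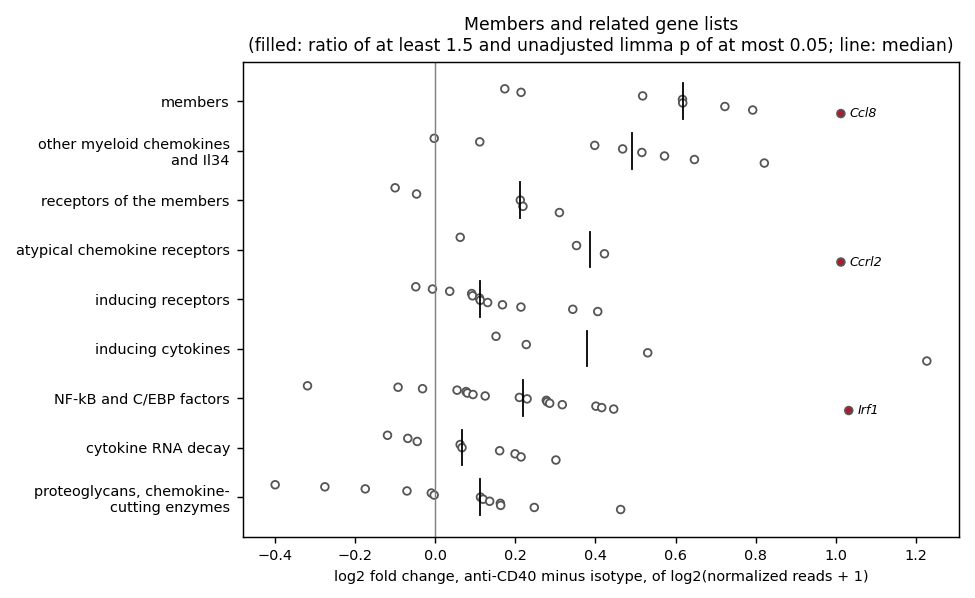
Log2 fold change (horizontal axis, anti-CD40 minus isotype control, of log2(normalized reads + 1)) of every tested gene in the 10-gene set (top row, "members") and in 8 related lists; each circle is a gene, filled circles passed the threshold, and vertical lines are medians. The median is 0.62 in the top row with all libraries, and 0.09 without isotype 5L, and it is between 0.07 and 0.49 in the lists below with all libraries, and Ccl8, Ccrl2 and Irf1 are the filled genes.

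The genes whose pattern over the 8 libraries was most like the 4 most abundant ones were named by Pearson's r on log2(normalized reads + 1), as a description. For Csf1 they were Tpbg (r = 0.99), Bmper (0.98) and Srpx2 (0.98), and 154 tested genes had r above 0.9. For Cxcl1 they were Rnf24 (0.99), Stard13 (0.98) and Ifi204 (0.97), with 224 genes above 0.9. For Ccl2 they were Spats2l (0.97, with a rho of 0.60), Saa3 (0.96) and Tvp23b (0.95), with 65 genes above 0.9, and for Cxcl5 Zfp248 (0.96), 3110043O21Rik (0.94) and Nt5e (0.94), with 10. Such genes share the libraries, and with them the low values of 5L.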

How the data were processed

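RNA of sorted tumor endothelial cells was sequenced from 8 tumors, 4 per treatment, with TruSeq RNA reagents and 10 ng of RNA per library. Per the labels and methods, the authors demultiplexed with CASAVA 1.8, aligned to mm10 with TopHat2 and Bowtie2 2.2.1, assigned reads to genes in Partek 6.6 and normalized gene counts with DESeq2. The methods also describe a correction for harvest day, flooring and trimming, none of which is visible in the deposited values, since 99.9% of them lie within 0.1 read of a whole multiple of 1 step per library. The deposited signal values are thus gene counts divided by a size factor, called normalized reads here, and reads and depth were recovered from these steps. The libraries have no molecular identifiers, so limits set by reads speak only of counting error.

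The fit used log2(value + 1) in limma 3.58.1 (R 4.3.3), had treatment as its single term and a variance trend, and covered 12969 genes, those where 1 group mean or both exceeded 10. P was adjusted by Benjamini-Hochberg. The log2(value + 1) scale understates changes of low genes. The threshold, a ratio of group means of 1.5 with an unadjusted p of 0.05, is that of the methods. The macrophage libraries of the authors' model were not analysed here, and the labels give a single harvest day. Each gene's group means were set against each other in a two-sided exact permutation test over the 70 splits of 8 libraries (smallest p 0.0286), and pairs of genes by exact permutation of Pearson's r and Spearman's rho. Each library is from a mouse of its own. Positions, transcript lengths and UTRs are from GENCODE M21. Promoters are from RefSeq (GRCm38.p6). Scripts were tested on simulated data.

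The genes and lists were chosen with earlier results of these data known. Named are all 10 genes, Cd40, of each list the genes past the threshold or else the 2 with the largest mean, the 3 genes most like each of the 4 most abundant members, and markers past the threshold; 1 further listed gene is not reported here. Alternatives were pseudocounts of 0.1 and 10, all genes, a mean above 50, recomputed size factors, quantile normalization, limma with no trend or with library quality weights, edgeR 4.0.16 and DESeq2 1.42.0 on recovered reads, fold changes from mean log2 values, and leaving out each library in turn. Leaving out 5L and 7N together and the relations to markers were added after seeing the data.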

Additional observations from a re-analysis of the deposited data

Results flagged for a closer look

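In 8 of 62 groups of 4 libraries looked at, 1 library stood apart from the other 3 by Dixon's criterion. Chance alone gives this in about 1 in 20 groups of independent, normally distributed values. The groups looked at share the same libraries, so their count cannot be compared with that rate. The value is the gap to the nearest other library divided by the range of the group. Among the 10 genes, Ccl2 was flagged for its low isotype library 5L (195.5 normalized reads, gap 0.952 of the range), and Cxcl5 for its high isotype library 7N (697 normalized reads, 0.896). Among related genes, isotype 5L was low for the receptor subunit Il6st (2273 normalized reads, 0.971) and isotype 8N high for the receptor chain Csf2rb2 (264, 0.923). With anti-CD40, 5N was low for the chemokine Cx3cl1 (214, 0.896) and 6L was high for the cytokine Il6 (352, 0.978). The hemoglobin genes Hba-a1 (477, 0.965) and Hba-a2 (413, 0.869) were high in anti-CD40 10N.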

How the results depend on the processing

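The number of the 8 tested genes past the threshold was 1 and rose to 2 with a pseudocount of 10, quantile normalization, recomputed size factors, edgeR and DESeq2 (Ccl8 and Ccl2 in each), with library quality weights and without isotype 5L and 7N together (Ccl8 and Cxcl5 in both). Leaving out 1 library gave 0 to 5, with 0 without isotype 5L or anti-CD40 5N and 5 without isotype 7N. No gene of the 8 was lower under any alternative run. Over all genes, those higher rose from 166 to 331 when all genes were fitted, and those lower changed from 31 to 93 with all genes, 13 with a mean above 50, 57 without the trend, 70 with quality weights, 47 with edgeR, 59 with DESeq2 and 56 without 5L and 7N, with 27 to 123 when 1 library was left out. The other myeloid chemokines had 1 call when all genes were fitted and 0 to 1 when a library was left out, the receptors 0 to 1, the inducing cytokines 1 with quality weights and 0 to 2, the NF-kB, C/EBP and IRF factors 1 to 2 (2 without isotype 8N), and the atypical receptors 0 without 5L and 7N together. Pairs of genes with an adjusted p under 0.05 for Pearson's r numbered 15, 1 to 13 when a library was left out and 0 without both.

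Log2 fold changes that turned below 0 without 1 library ranged from −0.00300 to 1.02 for Cxcl2, −0.11 to 0.31 for Csf1, −0.036 to 0.16 for Tnfrsf1a, −0.20 to 0.49 for Il33, −0.098 to 0.67 for Il6, −0.17 to 0.49 for Dusp1, −0.14 to 0.69 for Zfp36 and −0.088 to 0.41 for Mmp2, the lower end without 5L in each. For Hspg2 the range was −0.11 (without 7N) to 0.25. With quality weights the value was −0.12 for Csf1, −0.060 for Tnfrsf1a, −0.047 for Mmp2, −0.11 for Hspg2 and −0.21 for Cd40, and without 5L and 7N together −0.069, −0.078, −0.031, −0.056 and −0.33. The Il33 log2 fold change was −0.00206 with edgeR and −0.00809 with DESeq2, and the Il6 log2 fold change −0.00489 and −0.019. The cause was not tested. No paired analysis was possible because the labels give no replicate numbers, and the mouse IDs share 1 number between the groups (5N and 5L), too few for a block. Depth limits the genes with few reads, Csf2 and Csf3 first, and the 3 shallowest libraries were all isotype controls.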
